A study of Mus musculus with 45 samples.

Results

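Solute carriers are the membrane proteins that move small molecules without burning ATP themselves. The genes described here are the rows of the deposited expression table whose symbols begin with Slc plus a family number, a letter and a member number, or with Slco. There were 231 such rows, of which Slc6a5 and Slc6a11 were left out, so that 229 of the table's 11220 genes were examined. By their names, 4 of these are not carriers (Slc9a3r1, Slc7a6os, Slc2a4rg-ps and Slc10a3-ubl4); they were kept in the counts because the symbol alone chose the members. The authors' table holds genes that passed their own false discovery rate of 0.1 in at least 1 of 12 comparisons between treated groups, so carriers that never changed there are outside it.

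RNA was sequenced in bulk from 45 libraries, 3 in each of 15 groups, of mouse embryonic stem cells (mESCs) that were grown as adherent cultures and directed toward spinal dorsal interneurons. The starting groups were undifferentiated cells on day 0 and neuromesodermal progenitors (NMPs) on day 3, made with the growth factor bFGF and the WNT pathway agonist CHIR. From day 3 the cultures received 100 nM retinoic acid (RA), and 3 treatments were followed. Cultures with RA alone were collected on day 4, 6 h later, and on days 5, 7 and 9. Cultures with sequential BMP4 spent 24 h in RA before BMP4 at 10 ng/ml joined the RA, again for 24 h, and were collected 6 h into BMP4 and on days 5, 7 and 9. Cultures with combined BMP4 received RA and BMP4 together from day 3, for 24 h by day 4 and for 48 h in all, and were collected on days 4, 5, 7 and 9. The labels describe the RA-alone interval as 48 h but also as day 3 to day 4, and they call the combined arm by different letters in the protocol and the sample titles. Combined and sequential BMP4 differ in both the start and the length of the exposure. The series' design text speaks of 3 independent differentiations, but the labels do not say that a replicate number marks one of them, so p-values here measure the spread between these libraries. Each label gives the cell type as mESCs, whatever the day.

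Carriers are sorted into families by sequence, and the families differ in what they move and in which membrane they sit. Some load transmitters into synaptic vesicles or clear them from the cleft, others bring in glucose, amino acids, metals, vitamins and nucleosides, others exchange ions to set cell volume and pH, and the large Slc25 family serves the inner mitochondrial membrane. In a developing spinal cord the vesicular carriers are also used as markers of transmitter identity: Slc17a6 marks glutamatergic neurons and Slc32a1 marks GABAergic and glycinergic ones. RA acts through nuclear receptors and BMP4 through SMAD proteins, and both bind DNA near their target genes.

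The promoters of 5 members are shown because 4 of the genes were lower than with RA alone under both BMP4 schedules on days 5, 7 and 9, although for 3 of the 4 a call under sequential BMP4 depended on single libraries. The fifth, Slc22a3, was among those higher under combined BMP4 on each of these days. Each is the 250 bases before the start of transcription in RefSeq, assembly GRCm38.p6, written 5′ to 3′ on the gene's strand, which is the minus strand for all 5. Capitals mark CAGAC, a core of the SMAD binding element, or its reverse complement GTCTG.
Slc22a23: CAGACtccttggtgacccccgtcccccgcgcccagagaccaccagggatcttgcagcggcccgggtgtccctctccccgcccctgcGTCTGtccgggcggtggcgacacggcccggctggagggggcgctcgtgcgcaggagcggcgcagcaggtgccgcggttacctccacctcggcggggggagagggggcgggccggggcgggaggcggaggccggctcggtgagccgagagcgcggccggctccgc
Slc25a21: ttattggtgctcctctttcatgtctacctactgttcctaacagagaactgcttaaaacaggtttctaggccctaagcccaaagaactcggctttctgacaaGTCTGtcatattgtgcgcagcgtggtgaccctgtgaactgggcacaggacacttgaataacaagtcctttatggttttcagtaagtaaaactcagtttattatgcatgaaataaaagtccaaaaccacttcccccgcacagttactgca
Slc9a7: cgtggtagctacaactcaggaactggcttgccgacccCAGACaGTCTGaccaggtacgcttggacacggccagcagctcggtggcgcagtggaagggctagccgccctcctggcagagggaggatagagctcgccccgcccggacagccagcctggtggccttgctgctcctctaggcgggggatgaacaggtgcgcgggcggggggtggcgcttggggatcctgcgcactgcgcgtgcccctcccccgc
Slco1a5: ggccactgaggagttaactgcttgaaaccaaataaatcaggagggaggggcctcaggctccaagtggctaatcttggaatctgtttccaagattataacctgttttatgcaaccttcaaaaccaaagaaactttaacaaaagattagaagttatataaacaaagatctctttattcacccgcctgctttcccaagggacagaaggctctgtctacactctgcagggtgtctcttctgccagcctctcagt
Slc22a3: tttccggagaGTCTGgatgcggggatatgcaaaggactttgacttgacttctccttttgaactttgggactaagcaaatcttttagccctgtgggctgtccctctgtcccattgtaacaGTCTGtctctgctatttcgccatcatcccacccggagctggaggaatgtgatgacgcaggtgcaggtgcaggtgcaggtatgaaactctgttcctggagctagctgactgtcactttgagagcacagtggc
These windows lie at chr13:34345219-34345468, chr12:57197473-57197722, chrX:20291828-20292077, chr6:142322982-142323231 and chr17:12507705-12507954. The RefSeq start lay 36 bases from the GENCODE gene start for Slc22a23 and 20 bases from it for Slc9a7, and for Slc25a21 and Slco1a5 the table held 2 promoters, of which the one at the GENCODE start is shown. CAGAC was found on 1 strand or the other 2 times in the windows of Slc22a23, Slc9a7 and Slc22a3, 1 time in that of Slc25a21 and 0 times in that of Slco1a5. The motif was present in 42.2% of the 32851 promoter windows in the table and in 51.5% of the 233 windows that belong to 172 of the members. AGGTCA, a core element that RA receptors bind, was in none of the 5 windows, against 14% of all promoters and 12.4% of those of members, and GGCGCC, another sequence that SMAD proteins bind, was also in none, against 9.59% and 15.5%. The 5 windows differed in base composition, with a GC content of 78.4% for Slc22a23, 69.6% for Slc9a7, 51.2% for Slc22a3, 43.6% for Slco1a5 and 43.2% for Slc25a21. These matches describe letters in a window and are not measured binding sites.

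Values are the authors' normalized expression levels, which carry no unit in the table and are not counts; they are not scaled by gene length, so they are compared within a gene and not between genes. A log2 change is the difference of group means of log2(level + 1), which understates the change of genes with low levels, and each is given with its standard error (SE). A gene is called when its Benjamini-Hochberg adjusted p from limma, over all 11220 genes, is under 0.05, and "rose", "fell", "higher" and "lower" are used of called genes. Separate groups were part of the rule that named many members, so a lack of overlap adds no support to their calls. On day 5, combined BMP4 and RA alone did not overlap for 124 of the 229 members. On day 9, sequential BMP4 and RA alone did not overlap for 84 members, while 29 were called. Because the RNA is from whole cultures, fewer cells of a type and less RNA per cell cannot be told apart.

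Some libraries stood apart from the others of their group. The summed level of 8 pluripotency markers was 18412, 16877 and 99307 in the 3 libraries of day 0, and the third library also had the lowest sums of mesenchymal and neuronal markers. On day 3 the summed level of 6 caudal progenitor markers was 47024, 9160 and 9081, with the first library apart, and on day 4 of RA alone it was 1691, 8590 and 1054, with the second apart. The cell type lists moved with treatment too. The 7 neural progenitor markers summed to 22225 to 31136 with RA alone on day 5, to 10309 to 15326 with sequential BMP4 and to 2277 to 4129 with combined BMP4. In contrast, 6 lateral mesoderm markers summed to 971 to 1850 with RA alone and 17182 to 21593 with combined BMP4. No marker was listed at 0 in any library, since the table holds no value of 0. The part of these cell type differences in the carrier results was not tested.

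Among the 16 comparisons the largest share of members was called at the step from stem cells to NMPs. From day 0 to day 3, 90 members rose and 55 fell, 63.3% of the 229 (against 54.9% of all genes, 30.9% rising and 24% falling). From day 3 to day 4 of RA alone, 15 rose and 36 fell, or 22.3% (against 24.3% of all genes, 11.7% rising and 12.6% falling). Combined BMP4 against RA alone had 14 members higher and 30 lower on day 4, or 19.2% (against 14.1% of all genes, 6.76% higher and 7.37% lower). It had 47 and 65 on day 5, or 48.9% (against 44.3% of all genes, 21% higher and 23.3% lower). The counts were 43 and 49 on day 7, or 40.2% (against 43.5% of all genes, 22.9% higher and 20.6% lower), and 46 and 69 on day 9, or 50.2% (against 51% of all genes, 27.5% higher and 23.5% lower). Sequential BMP4 against RA alone had 6 members higher and 8 lower on day 5, or 6.11% (against 5.99% of all genes, 2.76% higher and 3.23% lower). It had 27 and 25 on day 7, or 22.7% (against 23.7% of all genes, 12.1% higher and 11.6% lower), and 9 and 20 on day 9, or 12.7% (against 11.8% of all genes, 6.12% higher and 5.71% lower). Combined over sequential BMP4 had 13 higher and 32 lower on day 5, or 19.7% (against 17.8% of all genes, 8.57% higher and 9.23% lower). It had 42 and 46 on day 7, or 38.4% (against 41.6% of all genes, 21.7% higher and 19.9% lower), and 46 and 53 on day 9, or 43.2% (against 51.5% of all genes, 27.8% higher and 23.7% lower). Between days 5 and 9, 66 members rose and 34 fell with RA alone, or 43.7% (against 39.1% of all genes, 17.7% rising and 21.5% falling). With sequential BMP4 48 rose and 37 fell, or 37.1% (against 43.7% of all genes, 20.4% rising and 23.2% falling), and with combined BMP4 42 rose and 18 fell, or 26.2% (against 25.8% of all genes, 14.4% rising and 11.4% falling). Quantile normalization moved the split of rises and falls in 3 of these: to 21 and 32 from day 3 to day 4, 6 and 4 for sequential BMP4 on day 5, and 34 and 30 for combined BMP4 over time. The members were thus called at about the table's own rate in most comparisons, and nothing particular to them is read from these counts. Their median log2 change was 0.23 from day 0 to day 3, where that of all genes was 0.07, and -0.18 for combined BMP4 over RA alone on day 9, where that of all genes was 0.04. In all, 221 members were called in at least 1 of 16 comparisons and 8 in none (Slc36a2, Slc36a4, Slc38a8, Slc3a1, Slc41a3, Slc5a6, Slc6a7 and Slc9a2).

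**Figure D1:**
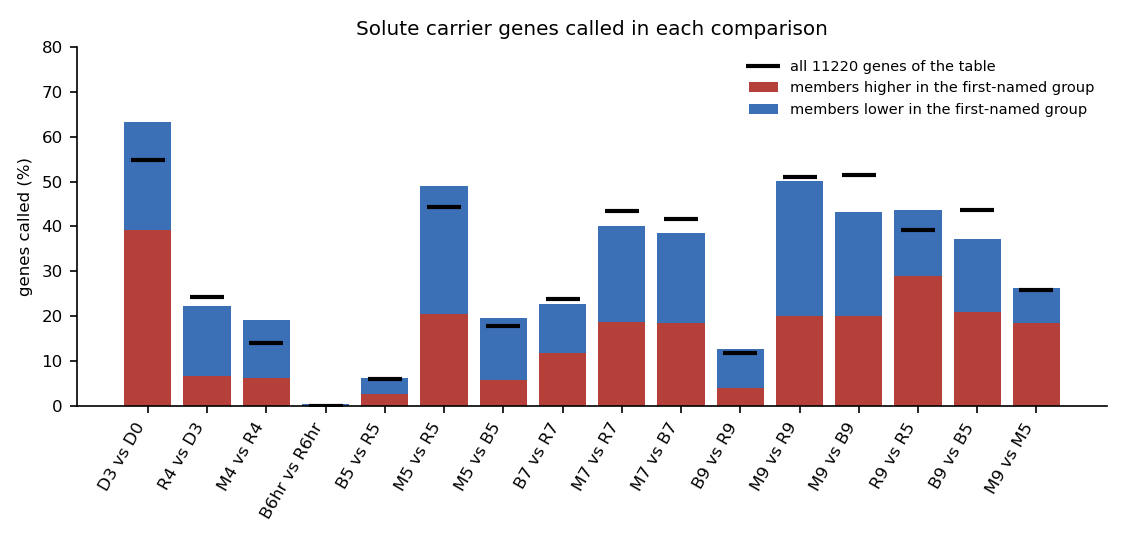
Bars show the percentage of the 229 members called higher or lower in the first-named group of each of 16 comparisons, and the black dash shows the percentage of all 11220 genes called in either direction. The bars are tallest for day 3 against day 0 (63.3%) and shortest for 6 h of BMP4 (0.437%), and most dashes lie near the top of their bar.

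Leaving out a single library lowered some of these counts by more than 1.5 times. Any removal also leaves a smaller group, so a lower count need not mark an unusual library. For sequential BMP4 over RA alone every removal lowered the count, to 30 to 42 on day 7 and to 12 to 22 on day 9. The 51 calls from day 3 to day 4 came to 33 without replicate 2 of day 3, and the 44 of combined BMP4 on day 4 came to 25 without its replicate 2. The 14 of sequential BMP4 on day 5 came to 7 without RA-alone replicate 2 or 3 and to 6 without its own replicate 2, and the 52 of day 7 came to 30 without its replicate 1. The 29 of day 9 came to 15 without RA-alone replicate 2, 14 without RA-alone replicate 3, and 18, 19 and 12 without sequential replicates 1, 2 and 3. For combined over sequential BMP4 on day 5, the 45 calls came to 23 without sequential replicate 3, and to 27 and 22 without combined replicates 1 and 2. From day 0 to day 3 the 145 calls came to 135 without replicate 3 of day 0 and to 137 without replicate 1 of day 3. Quantile normalization shifted the median of all genes by over 0.1 from day 0 to day 3 (-0.12) and in the test of the day 9 effect against the day 5 effect (-0.12).

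Levels of single members covered a wide range over the 15 groups. The ratio of the highest to the lowest group mean had a median of 3.37 over the 229 members and was 10 or more for 53 of them. The group with the highest mean was day 0 for 51 members, day 3 for 28, RA alone on day 9 for 24 and combined BMP4 on day 7 for 19, and the other 11 groups were highest for 3 to 16 each.

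**Figure D2:**
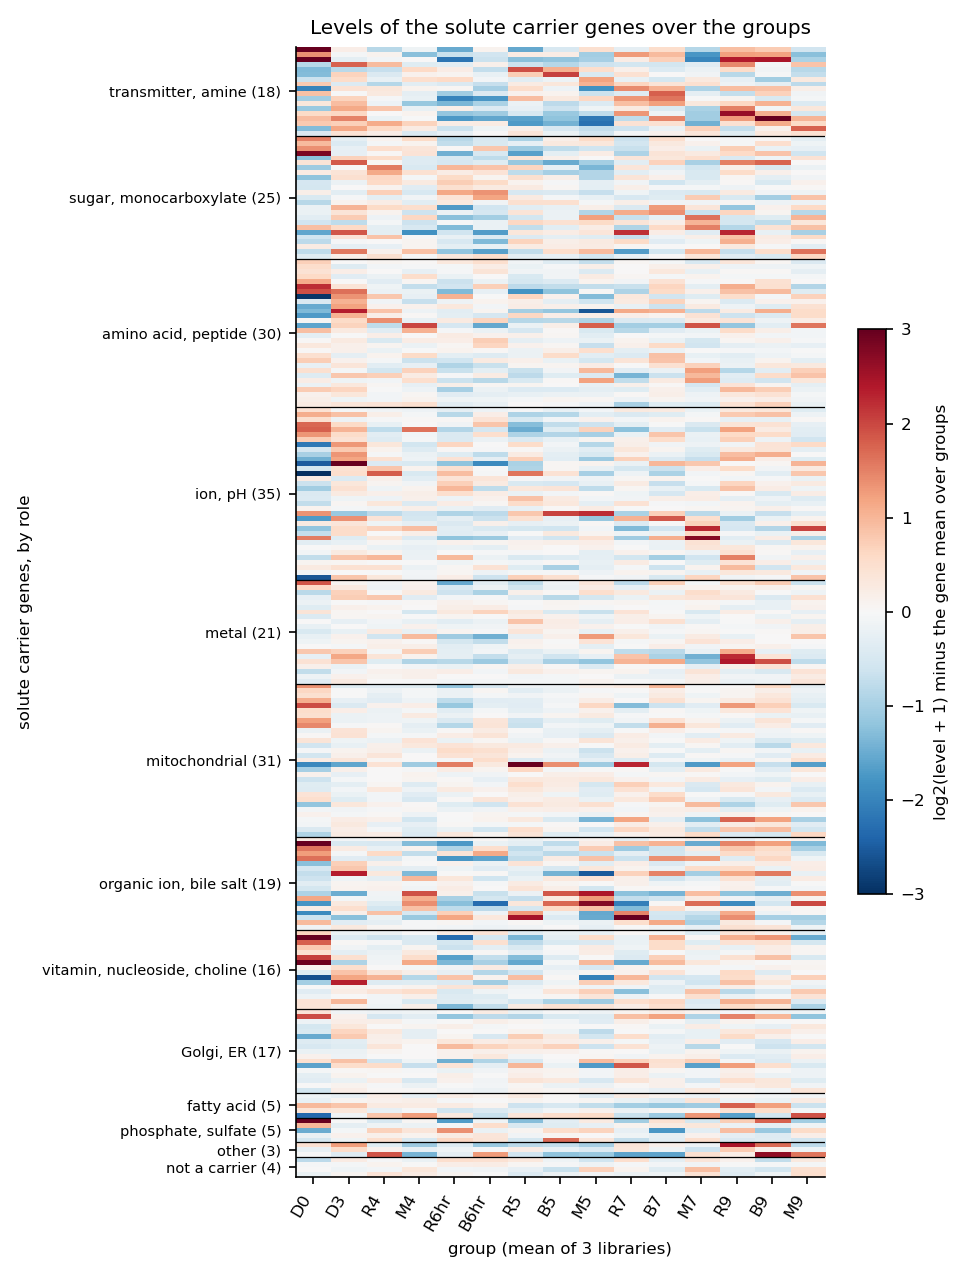
Each row is a member, 229 in all and ordered by role, and each column is a group, 15 in all, named by arm (D for the 2 starting groups, R for RA alone, B for sequential BMP4, M for combined BMP4) and day or hour. Colour is the group mean of log2(level + 1) minus the mean of that gene over the groups, limited to 3 in either direction. The day 0 column differs most from its neighbours, with 51 members at their highest there.

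Among the 18 carriers of transmitters and their precursors, 8 rose and 4 fell from day 0 to day 3, or 66.7% (54.9% of all genes). Combined BMP4 was higher than RA alone for 2 and lower for 6 on each of days 5, 7 and 9. That was 44.4% on each day (44.3%, 43.5% and 51% of all genes). Between days 5 and 9, 7 rose and 3 fell with RA alone (55.6%, all genes 39.1%), 6 and 1 with sequential BMP4 (38.9%, all genes 43.7%), and 5 and 1 with combined BMP4 (33.3%, all genes 25.8%). After quantile normalization the first of these became 6 and 6, the second 5 and 5 and the third 4 and 2. Summed levels of 10 neuronal markers on day 9 were 7347 to 15072 with RA alone, 19134 to 24635 with sequential BMP4 and 3296 to 5230 with combined BMP4, and their part in these results was not tested.

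The vesicular GABA and glycine carrier Slc32a1 (chr2:158610767-158615748) measured 22.8, 47.1 and 32.4 with RA alone on day 5 and 345, 268 and 260.4 on day 9 (log2 change 3.11, SE 0.51, adjusted p = 2.7e-05). On day 9 it measured 70.2, 112 and 117 with sequential BMP4 and 23.6, 27.6 and 49.9 with combined BMP4. The 3 treatments did not overlap on that day, with RA alone highest and combined BMP4 lowest. Combined BMP4 was lower than RA alone (log2 change -3.14, SE 0.51, adjusted p = 8.5e-06), and the difference was larger than that on day 5 (difference of the 2 effects -2.86 on the log2 scale, SE 0.73, adjusted p = 0.0025). Sequential BMP4 was lower than RA alone on day 9 at -1.56 (adjusted p = 0.043). This call ended without any 1 of the 6 libraries, with -1.33 and adjusted p = 0.16 without sequential replicate 1 at the lowest and -1.69 and adjusted p = 0.07 without sequential replicate 3 at the highest change.

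The vesicular glutamate carrier Slc17a6 (chr7:51622006-51671119) was highest with sequential BMP4. It measured 19.3, 1.18 and 0.6899 with sequential BMP4 on day 5 and 213, 144 and 152 on day 9 (log2 change 5.32, SE 1.10, adjusted p = 2.8e-04). RA alone on day 9 gave 41.6, 25.04 and 10.9 and combined BMP4 16.7, 10.7 and 37.4. Every sequential library of day 9 was above every library of the other 2 treatments on that day. Sequential was above combined BMP4 (combined over sequential log2 change -3.07, SE 1.10, adjusted p = 0.02), and the levels with sequential BMP4 and RA alone gave a log2 difference of 2.83 that was not called (adjusted p = 0.088). Slc17a6 rose from day 5 to day 9 in each treatment, by 2.88 with RA alone and 3.18 with combined BMP4. The first of these calls ended without RA-alone replicate 1 of day 5 (2.39, adjusted p = 0.13), RA-alone replicate 3 of day 5 (2.95, adjusted p = 0.073), RA-alone replicate 1 of day 9 (2.46, adjusted p = 0.12) or RA-alone replicate 2 of day 9 (2.81, adjusted p = 0.077). The second ended without combined replicate 1 of day 5 (3.15, adjusted p = 0.077), combined replicate 2 of day 5 (3.15, adjusted p = 0.075), combined replicate 3 of day 5 (3.24, adjusted p = 0.059), combined replicate 1 of day 9 (3.27, adjusted p = 0.06) or combined replicate 3 of day 9 (2.71, adjusted p = 0.12). The call between combined and sequential BMP4 on day 9 ended without sequential replicate 1 (-2.90, adjusted p = 0.054) or combined replicate 2 (-2.69, adjusted p = 0.082). Libraries of the early groups were unequal: on day 3 it measured 1.699, 74.97 and 97.9. The other vesicular glutamate carrier, Slc17a7, was highest with sequential BMP4 on day 7, at 135, 114 and 107 against 31.8, 25.3 and 20.9 with RA alone (log2 change 2.16, SE 0.39, adjusted p = 2.3e-04) and 36.5, 13.1 and 43.3 with combined BMP4.

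Slc6a9, the glial and neuronal glycine carrier, changed sides over time. Combined BMP4 measured 167, 167 and 177 against 277, 358 and 352 with RA alone on day 5 (log2 change -0.94, SE 0.17, adjusted p = 5.1e-05). By day 9 this was 329, 371 and 354 against 225, 180.3 and 194 (log2 change 0.82, SE 0.17, adjusted p = 2.4e-04). The groups did not overlap on either day, and the change between the days was called (1.75, SE 0.24, adjusted p = 2.1e-06).

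Of the glutamate uptake carriers, Slc1a1 was below RA alone with combined BMP4 on days 5, 7 and 9. It had 19.9, 11.7 and 12.2 against 27.2, 46.5 and 36.8 on day 5 (log2 change -1.29, SE 0.42, adjusted p = 0.012), a call that ended without RA-alone replicate 2 (-1.11, adjusted p = 0.057) or combined replicate 2 (-1.16, adjusted p = 0.052). It had 7.09, 9.44 and 8.54 against 89.5, 64.3 and 72.8 on day 7 (log2 change -3.03, SE 0.42, adjusted p = 5.3e-07), then 18.6, 7.03 and 13.1 against 72.3, 64.8 and 82.03 on day 9 (log2 change -2.50, SE 0.42, adjusted p = 1.0e-05). It was below sequential BMP4 on these days as well, with 57.1, 81.9 and 43.4 on day 7 and 52.97, 87.3 and 76.3 on day 9 in the sequential libraries. The day 5 call against sequential BMP4 ended without sequential replicate 1, 2 or 3 or combined replicate 2 or 3 (-1.34 to -1.13, adjusted p = 0.066 to 0.13). Slc1a6 went the other way with time: combined BMP4 gave 28.7, 30.6 and 20.4 on day 5, 71.9, 80.8 and 63.2 on day 7 and 128, 161 and 171 on day 9. RA alone gave 42.3, 50.95 and 54.9, 35.9, 34.3 and 17.9 and 28.2, 24.2 and 26.7. It was thus lower than RA alone on day 5 (-0.88, adjusted p = 0.0091; without combined replicate 3 -0.71, adjusted p = 0.058) and higher on day 9 (log2 change 2.49, SE 0.27, adjusted p = 1.1e-08). The astroglial carriers were more variable. Slc1a3 measured 1259, 1133 and 648 with RA alone on day 9, 1559, 1165 and 1256 with sequential BMP4 and 334, 495 and 678 with combined BMP4, which was lower than sequential BMP4 (log2 change -1.45, SE 0.41, adjusted p = 0.004). Slc1a2 ranged from 215 to 829 within the 3 RA-alone libraries of that day.

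Cholinergic carriers rose late or peaked early. Slc18a3, which loads acetylcholine into vesicles, rose from day 5 to day 9 in each treatment, from 8.98, 9.47 and 3.23 to 31.1, 21.5 and 53.6 with RA alone (log2 change 2.16, SE 0.49, adjusted p = 8.5e-04). It rose by 2.55 with sequential and by 2.81 with combined BMP4. On day 7 it was still 5.19, 8.497 and 12.3 with combined BMP4, below the 26.3 to 43.3 of the other 2 treatments. Slc5a7, which takes up choline, was instead highest with sequential BMP4 on day 5, at 30.3, 50.3 and 75.6 against 5.39, 11.5 and 7.62 with combined BMP4 (log2 change -2.49, SE 0.40, adjusted p = 3.9e-05, combined over sequential).

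Monoamine carriers were low and less regular. Slc18a2, the vesicular carrier of monoamine neurons, rose from 20.1, 11.8 and 14.9 on day 0 to 44.98, 49.3 and 62.8 on day 3 (log2 change 1.70, SE 0.52, adjusted p = 0.0061). On day 7 it was lower with combined (11.1, 38.7 and 71.3) than with sequential BMP4 (73.9, 116 and 114; log2 change -1.62, SE 0.52, adjusted p = 0.013). That call ended without combined replicate 1 (-0.90, adjusted p = 0.17). Slc18a1, its counterpart in endocrine cells, was highest on day 5 of combined BMP4, at 93.3, 138 and 126 against 50.9, 31.99 and 39.5 with RA alone (log2 change 1.53, SE 0.38, adjusted p = 0.0014), with no overlap. The noradrenaline uptake carrier Slc6a2 stood at 26.9, 25.8 and 26.2 on day 3 after 1.97, 2.26 and 8.45 on day 0 (log2 change 2.60, SE 0.53, adjusted p = 9.0e-05). It rose again from 5.54, 0.893 and 9.88 on day 5 to 21.9, 16.3 and 26.2 on day 9 of RA alone (log2 change 2.11, SE 0.53, adjusted p = 0.0021; without replicate 2 of day 5 1.39, adjusted p = 0.04). The third library of day 0 was the highest of its group for Slc6a2.

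**Figure D3:**
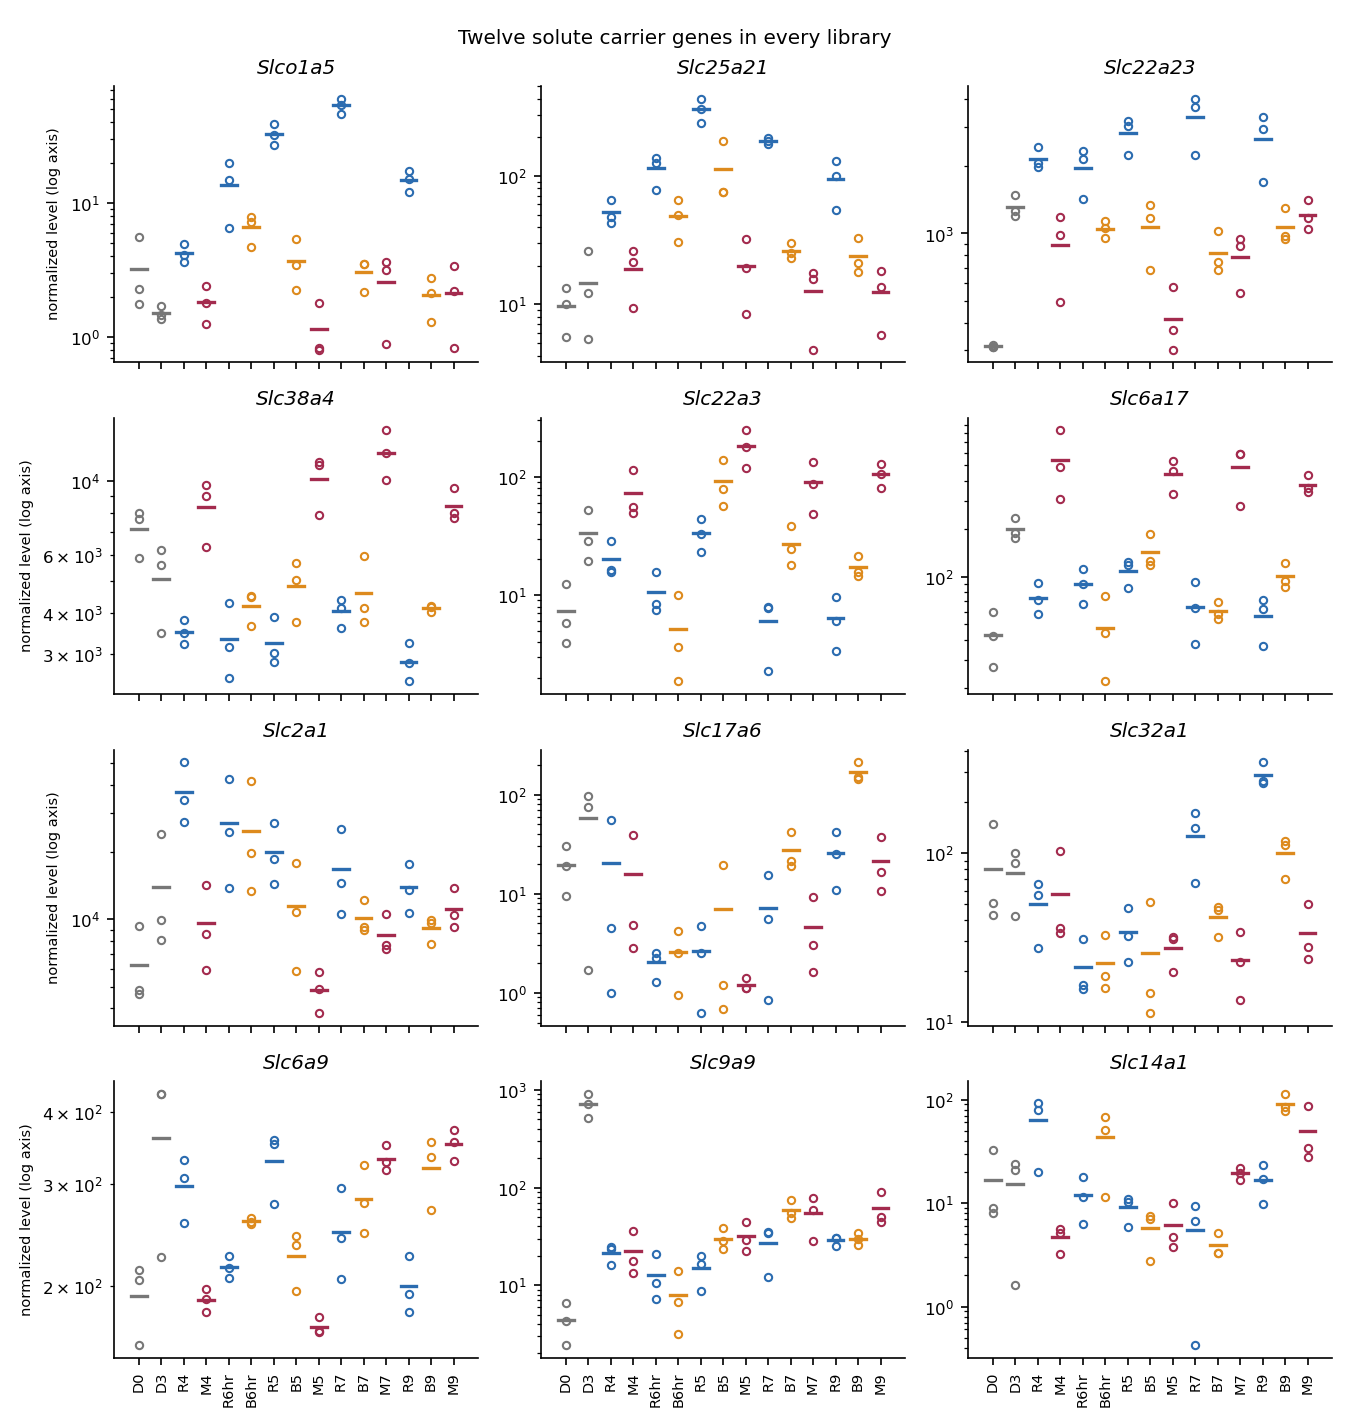
Each panel plots the level of 1 carrier on a log axis in the 3 libraries of each of the 15 groups, with the bar at the group mean and colours for the starting groups (grey), RA alone (blue), sequential BMP4 (orange) and combined BMP4 (red). Slco1a5, Slc25a21 and Slc22a23 are highest in blue on days 5, 7 and 9, Slc32a1 is low in red on day 9, and Slc17a6 is highest in orange on day 9.

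Among the 25 carriers of sugars and of the monocarboxylates lactate and pyruvate, 12 rose and 5 fell from day 0 to day 3, or 68% (54.9% of all genes). Combined BMP4 was higher than RA alone for 1 and lower for 6 on day 4, or 28% (14.1% of all genes). The largest of these falls was in Slc2a1 (chr4:119108711-119137983), the glucose carrier of most growing cells. It measured 34303, 50676 and 27268 with RA alone on day 4 and 5957, 8626 and 14200.3 with combined BMP4 (log2 change -2.01, SE 0.44, adjusted p = 0.0018). On day 5 this was 26983, 14439 and 18741 against 4902, 3799.8 and 5821 (log2 change -2.02, SE 0.44, adjusted p = 3.7e-04). The groups did not overlap on these days. On day 9 they did, at 10709, 13536 and 17802 with RA alone and 13809, 9211 and 10437 with combined BMP4, and the change in the effect was called (1.70, SE 0.62, adjusted p = 0.029). This last call ended without RA-alone replicate 1 of day 5 (1.47, adjusted p = 0.077), combined replicate 2 of day 5 (1.54, adjusted p = 0.07), RA-alone replicate 1 of day 9 (1.53, adjusted p = 0.07) or combined replicate 1 of day 9 (1.54, adjusted p = 0.067). Slc2a3, the glucose carrier of neurons and stem cells, rose from day 5 to day 9 with RA alone (8689.5, 3895 and 3572 to 10571, 11218 and 15849; log2 change 1.32, SE 0.40, adjusted p = 0.0091) and with sequential BMP4 (1.15, adjusted p = 0.02). The first call ended without RA-alone replicate 3 of day 5 (1.08, adjusted p = 0.063) or RA-alone replicate 3 of day 9 (1.14, adjusted p = 0.052). The second ended without sequential replicate 1 of day 5 (0.89, adjusted p = 0.1) or sequential replicate 3 of day 9 (1.03, adjusted p = 0.076). Slc37a4, which carries glucose 6-phosphate into the endoplasmic reticulum and belongs to the Golgi and endoplasmic reticulum group below, was lower with combined BMP4 than with RA alone on days 5, 7 and 9. It measured 210.1, 203 and 236 against 401, 477 and 322 on day 9 (log2 change -0.87, SE 0.22, adjusted p = 0.0017).

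Lactate and related carriers of the Slc16 family gave some of the widest ranges. Slc16a3, the lactate exporter of glycolytic cells, was highest with sequential BMP4 on day 7, at 4053, 5728 and 5497 against 2149.8, 1168 and 1467 with RA alone (log2 change 1.70, SE 0.32, adjusted p = 3.9e-04). On day 9 RA alone was lowest at 826, 847 and 1155, with 1477, 2932 and 2711 under sequential and 3427, 2361 and 3777 under combined BMP4 (log2 change 1.75, SE 0.32, adjusted p = 4.1e-05 for combined BMP4). Slc16a12, a creatine carrier, ran the opposite way: RA alone measured 333, 309 and 116 on day 9, sequential BMP4 53.02, 34.2 and 33 and combined BMP4 18.95, 24.7 and 25.03 (log2 change -3.28, SE 0.47, adjusted p = 1.2e-06). Both BMP4 schedules were below all RA-alone libraries of that day, although on day 5 combined BMP4 (46.6, 52.5 and 82.4) and RA alone (43.7, 60.1 and 74.8) overlapped. Slc16a9, a carnitine and creatine carrier, was higher with combined BMP4 than with RA alone and than with sequential BMP4 on days 5, 7 and 9. It measured 232, 244 and 224 against 43.3, 67.9 and 32.96 with RA alone and 73.4, 62.8 and 51.3 with sequential BMP4 on day 7 (log2 change 2.32, SE 0.29, adjusted p = 9.0e-08 over RA alone).

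Of the 30 carriers of amino acids and allied solutes, 9 rose and 7 fell from day 0 to day 3, or 53.3% (54.9% of all genes). Over the next day in RA alone 2 rose and 8 fell, or 33.3% (24.3% of all genes). Combined BMP4 was higher for 6 and lower for 8 than RA alone on day 9, or 46.7% (51% of all genes). Slc38a4 (chr15:96994820-97055956), an imprinted gene for a system A carrier of neutral amino acids, was described after its values had been seen. It was higher with combined BMP4 on each day. It measured 8994, 9772 and 6314 against 3809, 3212 and 3486 on day 4 (log2 change 1.23, SE 0.21, adjusted p = 1.0e-04) and 14256, 12218 and 10096 against 4145, 4359 and 3606 on day 7. Levels were 7741, 9508 and 8037 against 3239.6, 2824 and 2480.0 on day 9 (log2 change 1.57, SE 0.21, adjusted p = 3.3e-07). The groups did not overlap on any of the days 4, 5, 7 and 9. Sequential BMP4 lay between them on day 9, at 4173, 4179.9 and 4012. Slc6a17, a neutral amino acid carrier of synaptic vesicles, followed the same order, at 829, 306 and 489 with combined BMP4 against 71.2, 58.01 and 90.8 on day 4 (log2 change 2.77, SE 0.38, adjusted p = 4.5e-06). Its levels were 339, 361 and 436 against 62.1, 71.3 and 36.4 on day 9 (log2 change 2.77, SE 0.38, adjusted p = 5.2e-07). With sequential BMP4 Slc6a17 measured 121, 93.2 and 86.5 on day 9.

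Other amino acid carriers changed with stage. Slc43a1, a carrier of branched-chain amino acids, measured 145, 151 and 179 on day 0 and 1453, 942 and 827 on day 3 (log2 change 2.72, SE 0.18, adjusted p = 3.0e-14). Slc1a4, a carrier of serine and other small amino acids, measured 702, 736 and 603 and 1641, 2169 and 1846 (log2 change 1.47, SE 0.11, adjusted p = 1.0e-12). Neither overlapped between the days. Slc1a4 was later lower than RA alone under both BMP4 schedules on day 5 and higher under both on day 9, at 696, 658 and 721 with RA alone, 892, 1092 and 1033 with sequential and 1048, 1013 and 950.3 with combined BMP4. The sequential call on day 5 was -0.44 and ended without RA-alone replicate 2 (-0.41, adjusted p = 0.068) or sequential replicate 1 (-0.40, adjusted p = 0.073), and with quantile normalization (-0.39, adjusted p = 0.08). Slc7a14, of the cationic amino acid family, rose from day 5 to day 9 in each treatment, the most with combined BMP4 (0.927, 3.88 and 4.297 to 40.2, 28.7 and 25.03; log2 change 3.11, SE 0.49, adjusted p = 1.4e-05). The rise with RA alone (1.26) was not firm: it was 0.72 after quantile normalization (adjusted p = 0.21). The call also ended without replicate 2 (1.27, adjusted p = 0.073) or 3 of day 5 (1.04, adjusted p = 0.15) and without replicate 1 (1.13, adjusted p = 0.11) or 2 of day 9 (1.15, adjusted p = 0.1). Slc7a5 and Slc3a2, the paired subunits of a large neutral amino acid exchanger, were both lower with combined than with sequential BMP4 on day 7. Slc7a5 measured 3175, 2251 and 1995 against 5867, 6076 and 4363 (log2 change -1.15, SE 0.25, adjusted p = 5.5e-04). Slc3a2 measured 3271, 2485 and 2307 against 4335, 3999 and 3444 (log2 change -0.56, SE 0.17, adjusted p = 0.0096), a call that ended without combined replicate 3 (-0.46, adjusted p = 0.058).

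The 35 carriers of inorganic ions and protons gave 16 rises and 5 falls from day 0 to day 3, so that 60% were called (54.9% of all genes). Combined BMP4 was higher for 5 and lower for 10 than RA alone on day 5, or 42.9% (44.3% of all genes). It was higher for 4 and lower for 12 on day 9, where 45.7% were called (51% of all genes). From day 5 to day 9 of RA alone 12 rose and 5 fell, or 48.6% (39.1% of all genes). Slc9a9 (chr9:94669909-95230445), a sodium/proton exchanger of endosomes, had the largest rise of any named member at the NMP stage. It measured 6.57, 2.44 and 4.32 on day 0, 521, 719 and 911 on day 3 (log2 change 7.08, SE 0.46, adjusted p = 2.4e-14), then 16, 24.7 and 23.6 on day 4 of RA alone (log2 change -4.99, SE 0.46, adjusted p = 6.1e-10). All later libraries of any treatment lay between 3.12 to 90.03, below the lowest of day 3. Its relative Slc9a7, an exchanger of the Golgi described after its values had been seen, rose by 2.61 to day 3 and was then lower under both BMP4 schedules than with RA alone. On day 9 it measured 101, 126 and 121 with RA alone, 59.9, 54.4 and 71.8 with sequential and 46.5, 47.7 and 32.1 with combined BMP4 (log2 change -1.46, SE 0.29, adjusted p = 1.2e-04 for combined). The lower level under sequential BMP4 on days 5 and 9 was called with adjusted p = 0.031 and 0.04, and neither is firm. The first ended without any 1 of the 3 RA-alone libraries or without sequential replicate 1 or 2 (adjusted p = 0.063 to 0.19). The second ended without any 1 of the 6 libraries (adjusted p = 0.05 to 0.14).

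Chloride carriers set the sign of the response to GABA, with Slc12a2 bringing chloride in and Slc12a5 taking it out in maturing neurons. Slc12a5 rose from day 5 to day 9 with RA alone (108, 140.1 and 159 to 323, 338 and 218; log2 change 1.09, SE 0.25, adjusted p = 9.0e-04) and with sequential BMP4 (0.64, adjusted p = 0.037). Its change with combined BMP4 (110.3, 163 and 219 to 222, 210.4 and 232) was not called (adjusted p = 0.15). The rise with combined BMP4 was not called different from that with RA alone (difference of the 2 effects -0.61, SE 0.35, adjusted p = 0.17). Whether sequential BMP4 differs in this rise was not tested. The sequential call ended without sequential replicate 2 of day 5 (0.53, adjusted p = 0.13), sequential replicate 3 of day 5 (0.66, adjusted p = 0.071), sequential replicate 1 of day 9 (0.50, adjusted p = 0.15) or sequential replicate 2 of day 9 (0.59, adjusted p = 0.097). Slc12a2 was 1449.7, 1369.6 and 1381 with RA alone on day 9 and differed from the other treatments by less than the test could call. Calcium exchangers rose with the NMP stage. Slc8a1 went from 85.7, 102 and 45.5 to 835, 793 and 729 (log2 change 3.40, SE 0.49, adjusted p = 5.1e-07). Slc8a3 went from 4.46, 18.4 and 12.6 to 219, 112 and 119 (log2 change 3.67, SE 0.50, adjusted p = 2.2e-07). Slc8a3 was then 31.3, 40.1 and 100.1 with combined BMP4 against 248, 307 and 377 with RA alone on day 5 (log2 change -2.58, SE 0.50, adjusted p = 1.0e-04). Day 9 had the opposite order, 190.1, 163 and 178 against 120.0, 112 and 84.3, without a call on that day (adjusted p = 0.21). The effects of the 2 days differed (3.34, SE 0.71, adjusted p = 5.0e-04). Slc24a4, a potassium-dependent exchanger of sodium and calcium, was highest late with combined BMP4, at 46.4, 44.6 and 52.03 on day 7. Day 9 gave 32.9, 47.2 and 43.5 against 8.05, 7.32 and 3.99 with RA alone (log2 change 2.53, SE 0.46, adjusted p = 3.9e-05) and 5.88, 3.09 and 5.07 with sequential BMP4.

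Bicarbonate carriers gave 2 further patterns. Slc4a1, the anion exchanger of red cells, measured 96, 122 and 8.86 with combined BMP4 on day 7 against 3.3, 2.13 and 2.22 with RA alone (log2 change 3.8, SE 0.62, adjusted p = 8.5e-06). Sequential BMP4 gave 15.5, 18.5 and 11.3 (2.17 over RA alone). Replicate 3 of combined BMP4 was far below the other two. The summed level of the 5 of 7 erythroid markers in the table in the same libraries was 1066, 2873 and 172, lowest in that library too. The part of such cells was not tested. The change was 3.14 without combined replicate 2 and 4.96 without replicate 3. Slc4a9, an anion exchanger known from kidney, measured 48.4, 18.4 and 17.2 with combined BMP4 on day 5 and 19.5, 23.8 and 22.6 with sequential BMP4. It fell by day 9 in both (3.72, 2.19 and 5.17 and 2.33, 2.57 and 2.61; log2 change -2.52, SE 0.44, adjusted p = 6.9e-05 with combined BMP4). On day 5 Slc4a9 was higher with combined BMP4 than with RA alone, a call that ended without combined replicate 1 (0.94, adjusted p = 0.12). With sequential BMP4 it was not called higher than RA alone on that day. Slc4a7, a sodium bicarbonate carrier that keeps cells alkaline, peaked at the NMP stage, from 1281, 1097 and 1418 on day 0 to 3615, 2999.9 and 2769.9 on day 3 (log2 change 1.30, SE 0.11, adjusted p = 1.7e-11). It was lower with combined BMP4 than with RA alone on days 4, 5, 7 and 9. The call on day 4 ended without combined replicate 2 (-0.37, adjusted p = 0.052), and that on day 5 without RA-alone replicate 3 (-0.30, adjusted p = 0.059) or combined replicate 1 (-0.24, adjusted p = 0.12). Slc4a5, another sodium bicarbonate carrier, was 77.3, 80.3 and 49.5 with combined BMP4 against 23.8, 15.1 and 7.29 with RA alone on day 5 (log2 change 2.20, SE 0.62, adjusted p = 0.0044). By day 9 it was 60.3, 18.2 and 31.4 against 66.3, 90.2 and 146 (log2 change -1.52, SE 0.62, adjusted p = 0.039). Its groups were separate on both days, in opposite order. The day 9 call ended without RA-alone replicate 2 (-1.56, adjusted p = 0.068), RA-alone replicate 3 (-1.22, adjusted p = 0.15), combined replicate 2 (-1.12, adjusted p = 0.19) or combined replicate 3 (-1.49, adjusted p = 0.079).

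Of the 21 metal carriers, 9 rose and 2 fell at the NMP stage, or 52.4% (54.9% of all genes). From day 5 to day 9 of combined BMP4 5 rose and 0 fell by limma, or 23.8% (25.8% of all genes). After quantile normalization these counts were 6 and 5, and 4 and 3. The 2 groups of day 9 that had BMP4 differed for 11 of the metal carriers, or 52.4% (51.5% of all genes), with 8 higher and 3 lower under combined BMP4. The iron exporter Slc40a1 was 499, 582 and 576 with combined BMP4 on day 5 against 142, 216 and 234 with RA alone (log2 change 1.51, SE 0.36, adjusted p = 0.0011). Day 9 gave 322, 426 and 496 against 231, 226 and 141 (log2 change 1.07, SE 0.36, adjusted p = 0.015), with no overlap. The day 9 call ended without RA-alone replicate 3 (0.84, adjusted p = 0.089) or combined replicate 3 (0.93, adjusted p = 0.061). Slc30a3, which loads zinc into synaptic vesicles, rose with RA alone from 46.1, 27.4 and 25.9 on day 5 to 179, 171 and 213 on day 9 (log2 change 2.51, SE 0.42, adjusted p = 3.1e-05). On day 9 sequential BMP4 gave 44.1, 61.4 and 53.4 and combined BMP4 27.5, 23.3 and 38.2, both below all RA-alone libraries (log2 change -2.64, SE 0.42, adjusted p = 5.4e-06 for combined). Slc31a2, a relative of the copper carrier Slc31a1, was 404, 453 and 542 with RA alone on day 5, 287, 289.8 and 316 with sequential and 220.2, 198 and 218 with combined BMP4 (log2 change -1.12, SE 0.12, adjusted p = 7.5e-09). These ordered groups did not overlap. The zinc importer Slc39a4 was higher than RA alone with combined BMP4 on day 5 (205, 113 and 169 against 102, 85.8 and 42.9; log2 change 1.12, SE 0.40, adjusted p = 0.024). It was lower on day 9 (57.5, 65.9 and 123 against 156, 147 and 223; log2 change -1.14, SE 0.40, adjusted p = 0.018). The day 5 call ended without RA-alone replicate 3 (0.75, adjusted p = 0.19) or combined replicate 1 or 3 (0.93 and 1.06, adjusted p = 0.11 and 0.059). That of day 9 ended without RA-alone replicate 3 (-0.96, adjusted p = 0.083) or combined replicate 1 or 2 (-0.93 and -1.03, adjusted p = 0.089 and 0.07). Slc39a14, a carrier of zinc, manganese and iron, was lower than RA alone on day 5 with combined BMP4 (568, 557 and 484 against 1195, 898 and 1023; log2 change -0.94, SE 0.23, adjusted p = 0.001).

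Mitochondrial carriers of the Slc25 family, 31 in all, had more falls than rises at the NMP stage (9 rose, 13 fell) and under combined BMP4 on day 5 (5 higher, 11 lower than RA alone) and day 9 (6 higher, 10 lower). The shares called were 71%, 51.6% and 51.6% (54.9%, 44.3% and 51% of all genes). The day 5 count was 6 higher and 6 lower after quantile normalization. The widest change was in Slc25a21 (chr12:56712634-57197472), which carries the lysine and tryptophan breakdown product 2-oxoadipate. It was 26.2, 5.396 and 12.4 on day 3, rose with RA alone to 42.8, 65.4 and 48.2 on day 4 (log2 change 1.98, SE 0.51, adjusted p = 0.0043; without replicate 2 of day 3 1.46, adjusted p = 0.064). It stood at 331, 259 and 399.7 on day 5. Sequential BMP4 gave 75.4, 74.5 and 188 on day 5 and combined BMP4 8.46, 19.05 and 32.1 (log2 change -4.14, SE 0.51, adjusted p = 1.1e-07). The sequential call on day 5 (-1.66, adjusted p = 0.047) ended without any 1 of the 3 RA-alone libraries or without sequential replicate 1 or 2 (-1.83 to -1.44, adjusted p = 0.078 to 0.24), and with quantile normalization (adjusted p = 0.078). The 3 treatments did not overlap on day 5, which the rule that named Slc25a21 on that day required. On day 7 RA alone was 177, 198 and 186 against 25.1, 22.8 and 29.95 with sequential (log2 change -2.81, SE 0.51, adjusted p = 2.8e-04) and 4.46, 17.7 and 15.7 with combined BMP4 (log2 change -3.98, SE 0.51, adjusted p = 1.9e-07). By day 9 RA alone had fallen to 99.1, 129.7 and 54.3 but was above 32.9, 21.1 and 18.01 with sequential (log2 change -1.89, SE 0.51, adjusted p = 0.015) and 5.76, 18.1 and 13.7 with combined BMP4 (log2 change -2.86, SE 0.51, adjusted p = 3.1e-05). The sequential call on day 9 ended without RA-alone replicate 2 (-1.62, adjusted p = 0.093) or sequential replicate 3 (-1.71, adjusted p = 0.066).

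Other mitochondrial members moved less or in the opposite direction. Slc25a18, a glutamate carrier, measured 41.6, 45.8 and 33 with RA alone on day 9 and 5.798, 2.19 and 9.69 with combined BMP4 (log2 change -2.73, SE 0.47, adjusted p = 1.7e-05). Slc25a24, a carrier of ATP-magnesium and phosphate, was the reverse, with 1292, 1875 and 1487 under combined BMP4 against 524, 561 and 332 with RA alone (log2 change 1.73, SE 0.21, adjusted p = 6.1e-08). Both pairs of groups were separate. Slc25a37, which brings iron into mitochondria, was lower than RA alone with combined BMP4 on day 5 (364, 315 and 393 against 653, 443 and 521; log2 change -0.58, SE 0.17, adjusted p = 0.0061; without RA-alone replicate 1 -0.43, adjusted p = 0.059). Day 9 levels were 542, 633 and 574 against 585, 406 and 477.

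Of the 19 carriers of organic ions, bile acids and peptides, 9 were higher and 6 lower with combined BMP4 than with RA alone on day 5, or 78.9% (44.3% of all genes). A clean separation of RA alone from both BMP4 schedules was seen in Slco1a5 (chr6:142234227-142322981), a carrier of bile acids, thyroid hormone and other organic anions. It measured 1.72, 1.46 and 1.37 on day 3, 39.2, 32.4 and 27.2 on day 5 of RA alone, 60.3, 46.6 and 54.4 on day 7 and 17.4, 15.02 and 12.1 on day 9. On day 7 it was 3.53, 2.16 and 3.496 with sequential (log2 change -3.77, SE 0.37, adjusted p = 8.4e-08) and 3.17, 3.64 and 0.886 with combined BMP4 (log2 change -4.04, SE 0.37, adjusted p = 2.4e-10). No library with BMP4 on days 5, 7 or 9 reached the lowest RA-alone library of those days: the highest of these 18 was at 5.37 and the lowest of the 9 with RA alone at 12.1. Already 6 h into sequential BMP4 the levels were 7.88, 7.205 and 4.66, against 19.9, 14.8 and 6.55 with RA alone, a difference that was not called (adjusted p = 0.21).

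Slc22a23 (chr13:34179158-34345182), an organic ion carrier family member whose substrates are unsettled, had a like order. It rose from 319, 312 and 309.7 to 1492, 1261 and 1198 by day 3 (log2 change 2.06, SE 0.29, adjusted p = 4.2e-07). On day 5 it was 2238, 3023 and 3189 with RA alone, 1178, 689 and 1344 with sequential (log2 change -1.43, SE 0.29, adjusted p = 0.0026) and 303, 371 and 574 with combined BMP4 (log2 change -2.79, SE 0.29, adjusted p = 4.8e-09). The difference shrank with time under combined BMP4, to 1046, 1410.2 and 1171 against 3327, 2935 and 1690.4 on day 9 (log2 change -1.08, SE 0.29, adjusted p = 0.0027). The change in the effect was called (1.71, SE 0.41, adjusted p = 0.0017). The sequential call on day 5 ended without sequential replicate 2 (-1.14, adjusted p = 0.05).

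The cation carrier Slc22a3 (chr17:12418960-12507704) was higher with combined BMP4 than with RA alone on days 5, 7 and 9. Slc22a3, which clears monoamines outside neurons, measured 118, 181 and 247 against 23.1, 43.7 and 32.9 with RA alone on day 5 (log2 change 2.40, SE 0.50, adjusted p = 2.3e-04). On day 9 the levels were 80.01, 129 and 106 against 6.06, 9.66 and 3.38 (log2 change 3.91, SE 0.50, adjusted p = 1.6e-07). With sequential BMP4 Slc22a3 went from 140.0, 56.7 and 79.5 to 21.3, 15.6 and 14.6 (log2 change -2.28, SE 0.50, adjusted p = 5.3e-04). All 3 of these libraries of day 9 were above those of RA alone, but that difference was not called. Slco5a1, a family member without a settled substrate, was lower with combined BMP4 than in both other treatments on days 5, 7 and 9. Its level was 273, 219 and 285 on day 9 against 816, 610.4 and 595 with RA alone (log2 change -1.37, SE 0.31, adjusted p = 4.4e-04) and 935, 858 and 870.4 with sequential BMP4 (log2 change -1.78, SE 0.31, adjusted p = 2.5e-05). The day 5 call of Slco5a1 against sequential BMP4 ended without sequential replicate 1 (-0.88, adjusted p = 0.069) or combined replicate 2 (-0.99, adjusted p = 0.065). The prostaglandin carrier Slco2a1 was higher on day 7 under both BMP4 schedules, at 321, 239 and 229 with sequential (log2 change 2.01, SE 0.50, adjusted p = 0.005) against 62.04, 70.3 and 59.9 with RA alone. Combined BMP4 gave 286, 176 and 289.9 (log2 change 1.92, SE 0.50, adjusted p = 0.0022).

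Among the 16 carriers of vitamins, nucleosides and choline, combined BMP4 was higher for 7 and lower for 2 than RA alone on day 5, or 56.2% (44.3% of all genes). It was higher for 2 and lower for 6 on day 9, or 50% (51% of all genes). The effects of the 2 days differed for 11 of these carriers, or 68.8% (38.9% of all genes), 2 in the positive and 9 in the negative direction. After quantile normalization 1 differed in the positive and 7 in the negative direction. The concentrative nucleoside carrier Slc28a1 was 55.3, 25.8 and 29.4 with combined BMP4 against 15.9, 4.91 and 7.53 with RA alone on day 5. Later, on day 9, it was 6.81, 6.57 and 9.44 against 58.97, 36.2 and 59.4 (log2 change -2.59, SE 0.61, adjusted p = 7.7e-04). The day 5 call ended without RA-alone replicate 2 (1.57, adjusted p = 0.065) or combined replicate 1 (1.59, adjusted p = 0.068). The difference between the days was the largest of the named members (-4.5, SE 0.87, adjusted p = 1.6e-04). The riboflavin carrier Slc52a3 was highest on day 0 (78.6, 86.6 and 245) and 5.402, 6.51 and 10.04 on day 3 (log2 change -3.89, SE 0.53, adjusted p = 1.9e-07). It was 50.2, 30.4 and 16.3 with combined BMP4 on day 5 against 4.95, 6.13 and 2.603 with RA alone (log2 change 2.50, SE 0.53, adjusted p = 2.7e-04). The choline carrier-like Slc44a5 went the other way, at 12.3, 16.3 and 20.6 with combined BMP4 against 90.5, 146 and 168 on day 5 (log2 change -2.95, SE 0.33, adjusted p = 1.9e-08). It stood at 98.8, 156 and 94.2 against 132, 115 and 67.97 on day 9, without a call (adjusted p = 0.7). Slc29a4, a monoamine carrier of the nucleoside family, rose from day 5 to day 9 in each treatment, from 301, 359 and 336 to 1119, 944 and 999 with RA alone (log2 change 1.62, SE 0.20, adjusted p = 7.4e-07). The rise was from 263, 239 and 201 to no more than 371, 299 and 419.8 with combined BMP4 (log2 change 0.62, SE 0.20, adjusted p = 0.023). The combined call ended without replicate 2 or 3 of day 5 or replicate 1 or 3 of day 9 (0.51 to 0.64, adjusted p = 0.05 to 0.11). Slc46a3, a carrier of lysosomes, peaked at the NMP stage with 480.1, 279.8 and 298 between 26.98, 25.1 and 50.1 on day 0 and 49.8, 56.6 and 45.7 on day 4 (log2 change 3.36, SE 0.29, adjusted p = 1.6e-11).

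The remaining classes are small. Of the 17 carriers of the Golgi and endoplasmic reticulum, combined BMP4 was higher for 1 and lower for 8 than RA alone on day 5, or 52.9% (44.3% of all genes). On day 9, 5 were higher and 6 lower, or 64.7% (51% of all genes). Slc35f1, of the nucleotide sugar family, fell the furthest, at 44.6, 116 and 206 on day 7 against 1287, 1531 and 772 with RA alone (log2 change -3.48, SE 0.42, adjusted p = 5.6e-08). Slc27a6, a fatty acid carrier, was 89.4, 123 and 140.2 with combined BMP4 on day 9 against 6.99, 15.7 and 6.64 with RA alone (log2 change 3.54, SE 0.42, adjusted p = 4.7e-08) and 27.5, 16.8 and 16.9 with sequential BMP4. On day 5 combined BMP4 (26.9, 44.8 and 76.2) and RA alone (33.9, 42.2 and 42.5) had overlapped. Among the 5 carriers of phosphate, sulfate and dicarboxylates, the sulfate carrier Slc13a4 stood out with sequential BMP4 on day 5, at 132, 155 and 194 against 45.7, 33.03 and 23.6 with RA alone (log2 change 2.23, SE 0.33, adjusted p = 1.0e-04). The citrate carrier Slc13a5 was highest on day 0 (163, 133 and 716), and the phosphate carrier Slc20a1 fell from 3069, 3181 and 2989 to 1075, 1471 and 1338 by day 3 (log2 change -1.26, SE 0.22, adjusted p = 1.2e-05).

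The 2 urea carriers lie 4029 bases apart and differed in their courses. Slc14a1 was 93.6, 19.8 and 78.8 with RA alone on day 4 against 5.57, 3.22 and 5.18 with combined BMP4 (log2 change -3.28, SE 0.73, adjusted p = 0.0021). On day 9 it was 113, 84.3 and 77.1 with sequential BMP4 against 23.2, 16.9 and 9.82 with RA alone (log2 change 2.45, SE 0.73, adjusted p = 0.026). The day 9 call ended without RA-alone replicate 2 (2.50, adjusted p = 0.073), RA-alone replicate 3 (2.13, adjusted p = 0.11), sequential replicate 1 (2.29, adjusted p = 0.088), sequential replicate 2 (2.50, adjusted p = 0.058) or sequential replicate 3 (2.56, adjusted p = 0.056). Slc14a2 was highest with RA alone on day 9 (66.3, 40.6 and 20.6), followed by sequential BMP4 (35.5, 17.8 and 17.8) and combined BMP4 (4.02, 2.55 and 3.11; log2 change -3.23, SE 0.60, adjusted p = 5.0e-05). Sequential BMP4 thus held the highest mean of the first on that day and RA alone the highest mean of the second, although the counting method for genes so close together is not given in the sources used here.

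**Figure D4:**
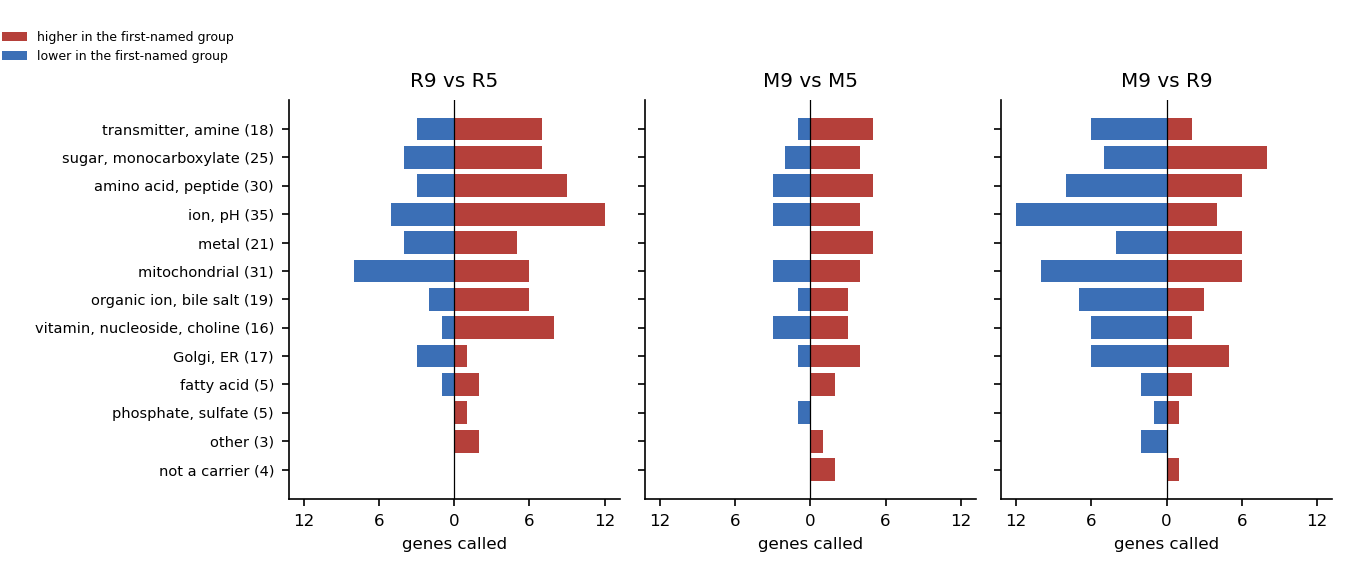
Bars give the number of members of each role that rose (right) or fell (left) in 3 comparisons: day 9 against day 5 of RA alone, day 9 against day 5 of combined BMP4, and combined BMP4 against RA alone on day 9. The ion and pH class shows 12 rises and 5 falls with RA alone over time, and 4 higher and 12 lower under combined BMP4 on day 9.

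The treatments were also compared over days 5, 7 and 9 together. Against RA alone, combined BMP4 was higher on all 3 days for 9 members (3.93%, where 7.82% of the table had this pattern), among them Slc10a7, Slc16a4, Slc16a9, Slc22a3, Slc38a4, Slc43a3, Slc44a2 and Slc6a17. It was lower on all 3 days for 20 members (8.73%, all genes 7.99%), among them 5 mitochondrial carriers (Slc25a18, Slc25a21, Slc25a23, Slc25a30 and Slc25a53). For 16 members (6.99%, all genes 7.06%) it was higher on 1 day and lower on another, and for 45 (19.7%, all genes 23.6%) it was called on none of the 3. Sequential BMP4 was lower than RA alone on all 3 days for 4 members (1.75%, all genes 0.668%), namely Slc22a23, Slc25a21, Slc9a7 and Slco1a5, and each of these was lower on all 3 days under combined BMP4 too. Of the 4, 1 (Slco1a5) held all 3 sequential calls without any 1 library. It was higher on all 3 for 1 member (0.437%, all genes 0.365%): Slc16a4, a monocarboxylate carrier family member. Slc16a4 measured 35.5, 29.4 and 28.8 with sequential BMP4, 64.1, 69.3 and 69.7 with combined BMP4 and 12.5, 10.2 and 16.5 with RA alone on day 9 (log2 change 1.22, SE 0.39, adjusted p = 0.038 for sequential). That call ended without any 1 of the 6 libraries, with adjusted p = 0.054 to 0.16. The sequential call of Slc16a4 on day 5 (1.28) ended without RA-alone replicate 2 or 3 or sequential replicate 1 or 2 (0.94 to 1.39, adjusted p = 0.078 to 0.3). That on day 7 (1.13) ended without RA-alone replicate 1 or 3 or sequential replicate 1 or 3 (0.96 to 1.04, adjusted p = 0.098 to 0.13). The day 7 change was 0.76 with quantile normalization (adjusted p = 0.082). The authors' deposited false discovery rate for it was 0.094, above the 0.05 used here but under their own 0.1. The lists in this paragraph were made after the values had been seen, and both BMP4 schedules were compared with the same RA-alone libraries. Combined over sequential BMP4, 3 members were higher (1.31%, all genes 2.99%; Slc16a9, Slc38a4 and Slc6a17) and 4 lower (1.75%, all genes 3.59%; Slc1a1, Slc31a2, Slc37a4 and Slco5a1) on all 3 days. With any 1 library left out, all 3 calls held for 8 of the 9 members higher and 10 of the 20 lower under combined BMP4 than RA alone. They held for 3 of the 3 higher and 1 of the 4 lower (Slc31a2) under combined than sequential BMP4.

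The effect of combined BMP4 over RA alone changed between day 5 and day 9 for 104 members, 45.4% of them, where 38.9% of the table was called. The difference was positive for 49 (21.9% of all genes) and negative for 55 (17% of all genes). The nucleoside carrier Slc28a1 and the sodium bicarbonate carrier Slc4a5 had the most negative differences (-4.5 and -3.72). The calcium exchanger Slc8a3, the glutamate carrier Slc1a6 and the fatty acid carrier Slc27a6 had the most positive (3.34, 3.37 and 3.34 on the log2 scale). From day 5 to day 9, 6 members rose in all 3 treatments (2.62%, all genes 1.93%): the transmitter carriers Slc17a6 and Slc18a3, the monoamine carrier Slc29a4, the amino acid carriers Slc7a8 and Slc7a14, and Slco5a1. All 3 calls held without any 1 library for 2 of the 6, Slc18a3 and Slco5a1. There was no member that fell in all 3 by limma (0, all genes 1.31%).

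**Figure D5:**
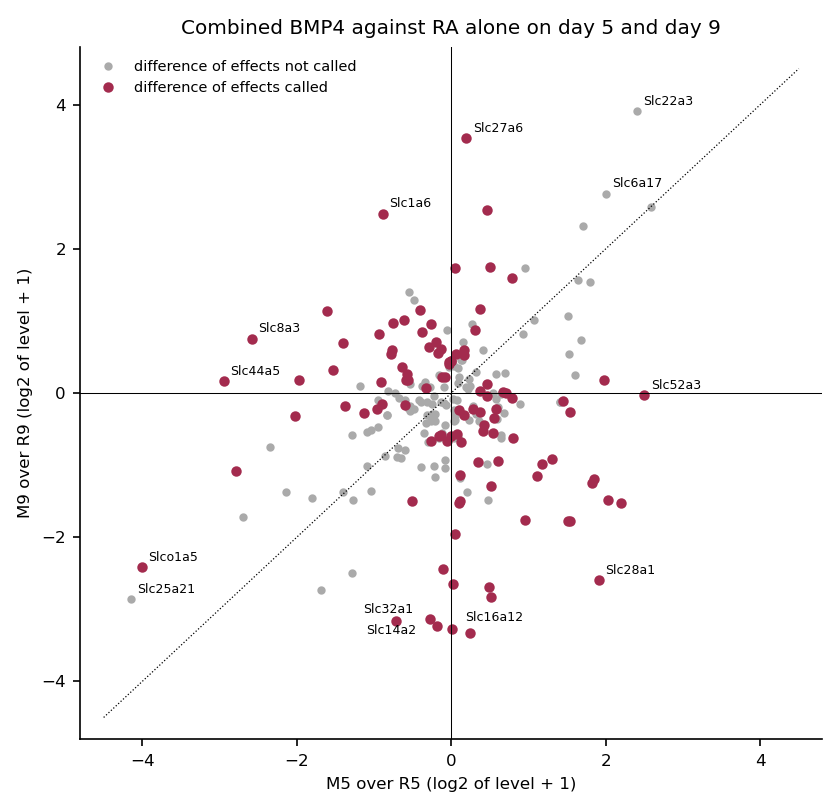
Each point is 1 of the 229 members, placed by the log2 change of combined BMP4 over RA alone on day 5 (horizontal) and on day 9 (vertical), with the 104 members whose 2 changes differed by the test in red. Slc28a1 lies far below the diagonal and Slc1a6, Slc8a3 and Slc27a6 far above it, while Slco1a5 and Slc25a21 are low on both axes.

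The members highest in undifferentiated cells rose in part from day 5 to day 9, depending on treatment, and all genes of the table with that pattern did so too. These members were picked by their levels in the same libraries. Their day 0 means include the third library, which stood apart. Of the 51 members with their highest group mean on day 0, 29 rose and 0 fell from day 5 to day 9 with RA alone (56.9%; 45.8% of all genes of the table with that pattern rose). There, 18 rose and 0 fell with sequential BMP4 (35.3%, all such genes 37.5%), and 0 rose and 8 fell with combined BMP4 (0%, all such genes 1.06%), each by limma. After quantile normalization these became 25 and 0, 16 and 0, and 0 and 16. Among the other 178 members, 37 rose and 34 fell with RA alone (20.8% rose; 12% of the other 9334 genes). With sequential BMP4 30 rose and 37 fell (16.9%, other genes 17%), and with combined BMP4 42 and 10 (23.6%, other genes 17.1%). Examples of the members highest on day 0 are Slc28a1 and Slc15a1. The peptide carrier Slc15a1 measured 60.6, 41.6 and 241 on day 0, 8.94, 7.77 and 4.197 with RA alone on day 5, 36.04, 16.1 and 28.8 on day 9 and 3.49, 1.26 and 4.16 with combined BMP4 on day 9 (log2 change -2.83, SE 0.61, adjusted p = 2.7e-04). The combined libraries were below all 3 of RA alone. Summed levels of the 8 pluripotency markers were 582 to 1347 with RA alone on day 5, 6044 to 11465 on day 9, 4970 to 11343 with sequential BMP4 on day 9 and 942 to 1955 with combined BMP4 on day 9. Their part in the result was not tested.

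The comparison 6 h after sequential BMP4 was added depended on the replicate numbers. With all libraries in 1 fit and no pairing, 1 member was called (0.437%, all genes 0.0178%). This was Slc26a8, an anion carrier known from testis, which fell from 24.9, 28.96 and 27.9 with RA alone to 5.32, 7.7 and 9.91 (log2 change -1.74, SE 0.32, adjusted p = 0.037). That call ended without any 1 of the 3 RA-alone libraries and without sequential replicate 1 or 2 (adjusted p = 0.068 to 0.25). In this comparison same-numbered libraries deviated together. With the replicate number as a block in a fit of the 6 libraries, 39 of the 229 members rose and 23 fell. Against these 62 calls, 25.9% of the table was called, 10.6% higher and 15.3% lower. No label pairs these libraries. The block was chosen from the same data that it was then fitted to, so the blocked calls and their p-values rest on that choice. The blocked calls named here were chosen after their values had been seen.

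Of the 30 amino acid carriers 10 rose and 3 fell in the blocked fit, where 10.6% of all genes rose and 15.3% fell. The cationic amino acid carrier Slc7a3 measured 116, 85.2 and 73.6 with RA alone and 262, 245 and 171 after 6 h of BMP4 (log2 change 1.30, SE 0.15, adjusted p = 8.4e-04), with no overlap. Its relative Slc7a1 rose too (log2 change 0.86, SE 0.08, adjusted p = 5.1e-04). So did both subunits of the large neutral amino acid exchanger, Slc7a5 (3683, 3579.5 and 4099 to 6360.3, 5083 and 5507; log2 change 0.57, SE 0.07, adjusted p = 0.0013) and Slc3a2 (log2 change 0.43, SE 0.07, adjusted p = 0.0025). The lactate exporter Slc16a3 went from 646, 635 and 641 to 1143, 1884 and 1255 (log2 change 1.12, SE 0.14, adjusted p = 0.0029). Of the 31 mitochondrial carriers 7 rose and 2 fell, and of the 21 metal carriers 4 rose and 0 fell. Other classes were more evenly split. The 35 ion and proton carriers gave 5 rises and 6 falls. The 17 carriers of the Golgi and endoplasmic reticulum gave 2 and 3, as did the 18 transmitter carriers. Among the falls, Slc25a21 went from 127, 138 and 77.9 to 65, 30.5 and 49.9 (log2 change -1.24, SE 0.29, adjusted p = 0.017). Slc22a23 went from 2345, 2141 and 1425 to 1062, 1139 and 950.1 (log2 change -0.88, SE 0.10, adjusted p = 0.0012). The groups of these last 2 members did not overlap.

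Other transport genes were counted for comparison, from lists of ATP-driven ion pumps (14 of 16 in the table), ABC transporters (20 of 27) and carrier partners or carriers under other names (18 of 24). On day 9 combined BMP4 was higher than RA alone for 1 and lower for 6 of the pumps, higher for 2 and lower for 11 of the ABC transporters, and higher for 3 and lower for 6 of the third list. Of all genes, 27.5% were higher and 23.5% lower. The drug exporter Abcg2 was 1 of the 2 ABC transporters that were higher (1.30, SE 0.10, adjusted p = 1.4e-11), while 11 were lower. From day 5 to day 9 of RA alone 9 pumps rose and 1 fell (17.7% of all genes rose and 21.5% fell). With sequential BMP4 over the same days 8 pumps rose and 1 fell (20.4% of all genes rose and 23.2% fell). With combined BMP4 2 pumps rose and 0 fell (14.4% of all genes rose and 11.4% fell).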

How the data were processed

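RNA-seq of 45 libraries (total RNA by RNeasy, NuGEN Universal plus mRNA libraries, per the labels' protocols) was read from the authors' deposited table of 11220 genes. Its normalized levels are a signal that the authors deposited without naming a unit, so the depth behind a value is unknown and no count test was possible; the levels summed to 12245725 to 15868724 per library. The submitters' processing notes name mm10, edgeR and Picard. What aligned, counted and annotated the reads, and how levels were normalized, is not given in the sources used here, so strand use and the split of reads between close copies are unknown. The table also holds columns headed fpkm, which are a score made by the authors from a power of the levels, and a rank score, neither of which was used, and the authors' deposited log2 changes, p-values and false discovery rates, of which the last were used as an alternative test. By the authors' false discovery rates, each gene of the table passed 0.1 in 1 or more of their 12 comparisons, so a share of genes called describes this selected table and not all transcripts.

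Levels were taken to log2(level + 1) and fitted with limma-trend with robust empirical Bayes (limma 3.58.1, R 4.3.3) over all 45 libraries, with 1 coefficient per group, and adjusted by the Benjamini-Hochberg method over all genes; a call is an adjusted p under 0.05. Requiring level 1 in no fewer than 3 libraries removed 0 genes. Coordinates are from GENCODE M21 on mm10, which held 226 of the 229 members, and tables and figures were made with Python 3.11.15, pandas 2.3.3, numpy 2.4.6 and matplotlib 3.10.9. The fit was tested on simulated data. The members, their roles, the gene lists and the tests were chosen with earlier results of these data known. Members were named by a rule: in each comparison, among called members with separate groups and a higher mean of at least 5, up to 3 of the largest rises and up to 3 of the largest falls, in each role the 2 with the smallest adjusted p, and 37 chosen carriers, of which 33 were in the table. Slc9a7, Slc16a4, Slc25a18, Slc29a4, Slc37a4, Slc38a4, Slc39a4 and members named only in counts were named after their values were seen. Some named members are not reported here.

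Same-numbered libraries were checked by the correlation of their deviations from the group means. It was 0.59, 0.19 and 0.46 for the 3 numbers at 6 h of BMP4 (at most 0.15 between different numbers), above 0.1 for each, so the numbers were taken to pair these libraries, from the data and not from a label; in no other comparison did all 3 pass.

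Alternatives were the replicate number as a block, the compared libraries only, pseudocounts of 0.1 and 5, no filter and a filter of level 10, quantile normalization, array weights, the authors' test, an adjusted p under 0.01, a change of at least 2-fold, and leaving out each library in turn.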

Additional observations from a re-analysis of the deposited data

Results flagged for a closer look

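For the members below the effect of combined BMP4 over RA alone differed between day 9 and day 5, by a limma test of the difference itself with an adjusted p under 0.05. The values are the day 9 effect minus the day 5 effect on the log2 scale. Among members whose combined libraries stood lower against RA alone on day 9 than on day 5, the difference was -4.5 for Slc28a1, -3.72 for Slc4a5, -3.35 for Slc15a1, -3.31 for Slc13a5, -3.29 for Slc16a12 and -3.04 for Slc14a2. Smaller differences of the same sign were -2.86 for Slc32a1, -2.66 for Slc30a3, -2.53 for Slc52a3, -2.16 for Slc46a3, -2.01 for Slc7a3 and -1.42 for Slc6a13. In the other direction, the differences of 1.5 or more were 3.37 for Slc1a6, 3.34 for Slc27a6, 3.34 for Slc8a3, 3.11 for Slc44a5, 2.07 for Slc24a4, 1.85 for Slc7a14, 1.75 for Slc6a9, 1.72 for Slc8a1, 1.71 for Slc22a23, 1.70 for Slc2a1, 1.69 for Slc25a24 and 1.59 for Slco1a5. The smaller ones were 1.36 for Slc17a7, 1.31 for Slc1a4, 1.25 for Slc16a3, 1.22 for Slc16a6, 0.85 for Slc31a2, 0.84 for Slc25a37, 0.75 for Slc35e4, 0.74 for Slc43a1, 0.44 for Slc35b4, 0.44 for Slc27a4 and 0.37 for Slc30a7. Of all genes, 38.9% were called in this test. Some of these calls depended on single libraries among the 12. The call of Slc17a7 ended without any of 9 of them in turn (1.05 to 1.46, adjusted p = 0.052 to 0.15), with array weights (0.88, adjusted p = 0.084), with a pseudocount of 0.1 and with the replicate number as a block over all libraries. That of Slc6a13 ended without any of 7 (-1.4 to -0.75, adjusted p = 0.067 to 0.23) and with quantile normalization (-1.06, adjusted p = 0.14), and was smallest without replicate 2 of combined BMP4 on day 9 (-0.75, adjusted p = 0.23). That of Slc8a1 ended without any of 7 (1.27 to 1.75, adjusted p = 0.064 to 0.16) and with that block (adjusted p = 0.054). That of Slc16a3 ended without any of 6 (1.04 to 1.18, adjusted p = 0.056 to 0.086) and with quantile normalization (1.10, adjusted p = 0.061). The calls of Slc7a3 (-1.95 to -1.62, adjusted p = 0.052 to 0.1) and Slc7a14 (1.38 to 1.84, adjusted p = 0.052 to 0.13) each ended without any of 5, and that of Slc7a14 also with a pseudocount of 5 (1.18, adjusted p = 0.084). That of Slc2a1 ended without any of 4 (1.47 to 1.54, adjusted p = 0.067 to 0.077) and with quantile normalization (1.24, adjusted p = 0.077). Slco1a5 lost its call without replicate 1 of combined BMP4 on day 9 (1.31, adjusted p = 0.058) and Slc30a7 without replicate 3 of RA alone on day 9 (0.28, adjusted p = 0.051). Quantile normalization also ended the calls of Slc27a4 (0.20, adjusted p = 0.18), Slc30a7 (0.22, adjusted p = 0.07) and Slc43a1 (0.64, adjusted p = 0.071). The other 26 kept their call without any 1 library.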

How the results depend on the processing

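The number of members called stayed within 1.5 times with a pseudocount of 5, no filter, a filter of level 10, quantile normalization and the replicate number as a block over all libraries, in all 16 comparisons and in the test of the day 9 against the day 5 effect. Of 511 calls of named members, the replicate block within the compared libraries ended 174 and a fit of the compared libraries only ended 111. Quantile normalization ended 47, the block over all libraries 14, array weights 7, and the pseudocounts 0.1 and 5 ended 12 and 10. No setting turned a direction. The authors' deposited test had a false discovery rate of 0.05 or more for 22 of the 171 of these calls that it covers. The authors' own threshold was 0.1. Depth is unknown, so no counting error can be given for low levels. Where a count moved, as below, the cause was not tested.

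At least 2-fold changes with an adjusted p under 0.05 numbered 84 from day 0 to day 3, 24 from day 3 to day 4, and for combined BMP4 over RA alone 21, 51, 46 and 59 on days 4, 5, 7 and 9. They numbered 9, 24 and 13 for sequential BMP4 over RA alone and 21, 35 and 43 for combined over sequential BMP4 on days 5, 7 and 9, then 55, 35 and 27 from day 5 to day 9 of RA alone, sequential and combined BMP4, and 57 for the difference of effects. An adjusted p under 0.01 gave 29 from day 3 to day 4, 25 for combined BMP4 on day 4, 0 at 6 h, 7 and 24 and 13 for sequential BMP4 over RA alone on days 5, 7 and 9, 21 and 55 for combined over sequential BMP4 on days 5 and 7, 64 and 34 over time in RA alone and combined BMP4, and 59 for the difference of effects. Array weights gave 126 from day 3 to day 4, 97 for combined BMP4 on day 4 and 156 on day 7, 78 at 6 h, 39, 129 and 103 for sequential BMP4 on days 5, 7 and 9, 84 and 148 for combined over sequential BMP4 on days 5 and 7, and 125 over time in combined BMP4. A fit of the compared libraries only gave 19 from day 3 to day 4, 8 for combined BMP4 on day 4 and 59 on day 7, 21 at 6 h, 2 and 25 for sequential BMP4 on days 5 and 7, and 22 for combined over sequential BMP4 on day 5. At 6 h a pseudocount of 0.1 gave 0 calls by limma and the authors' deposited test 2 with a false discovery rate under 0.05.

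With the replicate block in a fit of the compared libraries the 6 h comparison gave 62 calls in place of 1. There the pairing was taken from the data and not from a label. Elsewhere the samples share only a number, and the block gave 77 from day 0 to day 3, 4 from day 3 to day 4, 8 and 23 for combined BMP4 on days 4 and 7, 0, 0 and 44 for sequential BMP4 on days 5, 7 and 9 by limma, 23 for combined over sequential BMP4 on day 5, and 18 and 55 over time in RA alone and sequential BMP4.

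Leaving out 1 library at a time gave 133 to 138 calls from day 0 to day 3, 33 to 65 from day 3 to day 4, and for combined BMP4 over RA alone 25 to 41, 80 to 107, 81 to 88 and 89 to 105 on days 4, 5, 7 and 9. It gave 0 to 1 at 6 h and 6 to 14, 30 to 42 and 12 to 22 for sequential BMP4 on days 5, 7 and 9. Combined over sequential BMP4 had 22 to 44, 62 to 79 and 78 to 107, the change over time 71 to 91, 62 to 89 and 41 to 55 in RA alone, sequential and combined BMP4, and the difference of effects 87 to 101.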
